A study of Homo sapiens with 9 samples.

Results

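The p53 target genes described here are 10 genes that the tumour suppressor p53 is known to switch on, out of 19317 genes in the deposited table. They are CDKN1A, BTG2, MDM2, SESN1, TP53I3, RRM2B, TP53INP1, BBC3, FAS and GDF15. They were chosen by name and matched through their Ensembl identifiers, and all 10 passed the filter on low counts. The RNA came from HepG2, a hepatocellular carcinoma cell line, in 3 groups of 3 libraries, and every medium held 10% serum and 1% antibiotics. The WT group was the control, kept in RPMI, and "WT" is also the genotype label of all 9 samples. The DNL group, a model of de novo lipogenesis, was kept for 1 week in DMEM with T0901317 (10 µM), which activates liver X receptors, and insulin (10 µg/ml). The OA group received 25 µM oleic acid, carried in 11% BSA, in DMEM for 6 hours, and the labels name no albumin for WT or DNL. The series compares 2 ways of loading the cells with fat with control cells. Compound, medium and duration change together between each treated group and WT, so their effects cannot be told apart, and the same holds for compound and duration between DNL and OA.

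p53 is a transcription factor that is held low by the ubiquitin ligase MDM2 and accumulates when DNA damage, ribosomal stress or shortage of nucleotides interrupts that control. Its targets stop the cell cycle (CDKN1A, BTG2), feed back on p53 (MDM2), guard metabolism and nucleotide supply (SESN1, TP53I3, RRM2B, TP53INP1), promote cell death (BBC3, FAS) or are secreted (GDF15). Several of these genes also respond to other inputs, such as GDF15 and BBC3 to the ATF4 and CHOP stress pathway.

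p53 is known to bind pairs of a 10-base element. The RefSeq promoter table (GRCh38.p14) gave 15 windows of 250 bases for 8 of the 10 genes, and RRM2B and TP53INP1 were not analysed here. The windows were searched for the p53 consensus decamer, a pattern that is its own reverse complement, and for pairs of it with up to 13 bases between them. A pair with at most 2 mismatches was found in 5 of the 15 windows (of MDM2, FAS and SESN1, some overlapping) and one with at most 3 in 9. Of all 34943 windows of that length, 6.63% held a pair with at most 2 mismatches and 34.1% one with at most 3. For each window only the pair with the fewest mismatches was kept, so further pairs in the same windows, MDM2 among them, are not shown. Of the kept pairs, those with no bases between the decamers and at most 3 mismatches are printed. That choice was made after the matches were seen, because these pairs are the ones closest in form to the textbook element. Capitals mark the decamers, with 5 bases on either side.
MDM2: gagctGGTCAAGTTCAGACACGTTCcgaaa
FAS: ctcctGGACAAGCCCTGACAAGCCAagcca
SESN1: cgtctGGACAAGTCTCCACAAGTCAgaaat
The MDM2 stretch (chr12:68808918-68808947, plus strand) lies between its alternative starts and has 1 mismatch to the consensus in each decamer. The FAS stretch (chr10:88991304-88991333, plus strand) has 0 mismatches in the first decamer and 2 in the second. The SESN1 stretch (chr6:109009013-109009042, minus strand) has 0 and 3. An exact single decamer was present in 5.58% of all windows and in 2 of the 15 windows of these genes, those of FAS and SESN1 printed here. A match describes the letters and does not show that p53 binds there. Elements outside these windows, farther upstream or within the genes, were not searched, so a window without a close pair says nothing about them. The whole window before this SESN1 start (chr6:109008989-109009238, minus strand) touches no annotated SESN1 exon, and its capitals again mark the pair.
SESN1 window: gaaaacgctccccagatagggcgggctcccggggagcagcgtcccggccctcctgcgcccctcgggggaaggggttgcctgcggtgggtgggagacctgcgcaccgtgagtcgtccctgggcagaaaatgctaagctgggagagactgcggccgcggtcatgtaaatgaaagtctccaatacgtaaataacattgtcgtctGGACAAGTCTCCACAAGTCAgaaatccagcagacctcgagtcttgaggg
The letters TGATGNAA, the core of the element that ATF4 is known to bind, were searched on both strands and had 0 matches in the 15 windows, against 3.15% of all windows. The counts are summed per gene, so which start was used in which group was not analysed here.

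Totals of estimated counts ran from 7836520 (OA replicate 3) to 43043347 (WT replicate 1). The smallest estimated count behind a value of a p53 target was 124, for FAS, and the smallest for CDKN1A, MDM2 and GDF15 was 3054. Hepatocyte markers were present in every library, with 0 of 9 at 0, and their summed level was 41060 to 42670 CPM in WT, 74210 to 76280 in DNL and 13210 to 15240 in OA. CPM here means counts per 1e6 after TMM scaling. APOB made up most of the hepatocyte sum in each group. Of the 9 markers, 7 were called higher in DNL against WT and 1 lower, HNF4A (567 to 481 CPM), while AFP was not called. In OA against WT, 0 were called higher and 8 lower. Among 6 markers of stellate cells and fibroblasts, the collagens COL1A1 and COL1A2 stood apart in OA. The 6 markers summed to 92.8 to 972.5 CPM in OA, 71.0 to 77.01 in WT and 90.6 to 92.7 in DNL. ACTA2 made up most of the sums in WT and DNL. PDGFRB had its highest mean in WT, at 9.92 CPM, with 1.04 in DNL and 4.77 in OA. COL1A1 measured 19.4, 85.0 and 537 CPM in OA replicates 1, 2 and 3, and COL1A2 measured 10.2, 41.1 and 259.6. COL1A2 and LUM were at 0 in WT and DNL. PDGFRB, at 2.36, 4.34 and 7.61 CPM, and ACTA2, at 58.5, 80.2 and 164, rose in the same replicate order in OA. So did DCN, at 2.33, 2.34 and 3.60 CPM, and LUM, at 0, 0.262 and 0.698. OA values of the 10 targets are therefore given with and without OA replicate 3. The other genes that the selection rule names were checked without that library, the cell type markers left out. Of these, 57 of 57 called in OA against WT and 61 of 61 called in OA against DNL kept call and direction. Their shifts were at most 0.28 on the log2 scale. OA replicates 1 and 2, which also held collagen transcripts, stayed in that fit. The part of these transcripts in the results was not tested. Of the 7 macrophage and leukocyte markers, CSF1R, C1QA and MARCO were at 0 in WT and DNL, and MARCO was at 0 in OA. LYZ made up most of that list's sum, which was 979 to 990 CPM in WT, 1618 to 1712 in DNL and 1057 to 1092 in OA. The 5 endothelial markers summed to at most 6.90 CPM in any library, with STAB2 at 0 in all groups, KDR at 0 in WT and DNL and CDH5 at 0 in OA. The 5 cholangiocyte markers summed to 459 to 475 CPM in WT, 844.0 to 954 in DNL and 802 to 955 in OA. The sums hide different genes. SOX9 averaged 320 CPM in WT, 661 in DNL and 254 in OA, and KRT19 averaged 92.2, 150.5 and 551. CFTR was at 0 in all groups and KRT7 at 0 in WT and DNL. In OA replicates 1, 2 and 3, KRT7 measured 0.474, 1.48 and 8.19 CPM, rising in the same order as the collagens. In bulk RNA, fewer cells of a type and less RNA per cell cannot be told apart.

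**Figure D1:**
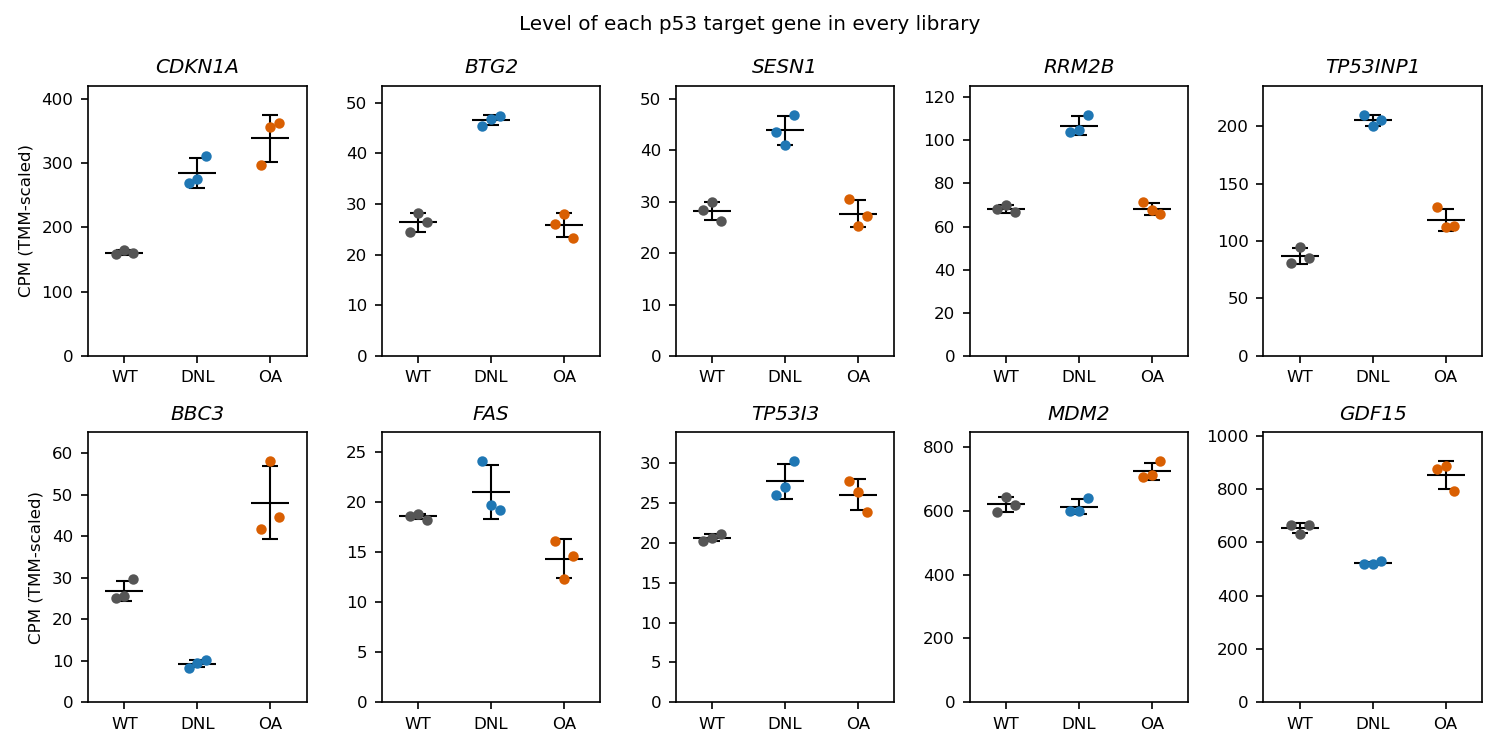
Level of each p53 target in TMM-scaled CPM (vertical axes, each starting at 0) in the 3 groups (horizontal axis). Points are single libraries, and bars give the mean ± SD of 3. TP53INP1, BTG2, SESN1 and RRM2B were highest in DNL, BBC3, MDM2 and GDF15 highest in OA, and CDKN1A and TP53I3 were above WT in both treated groups.

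The 10 genes did not move as a block. Against WT, 6 were called higher and 2 lower in DNL, and 6 were called higher and 1 lower in OA, where a call is a Benjamini-Hochberg adjusted p under 0.05 in the edgeR fit over all genes. Of all 13636 genes tested, 53.8% were called in DNL against WT, with 27.1% higher and 26.8% lower. In OA against WT 60% were called, with 30.4% higher and 29.7% lower. Differences of at least 2-fold were called for 2 of the 10 genes in DNL against WT, 1 in OA against WT and 1 in OA against DNL, and for 12.3%, 16.8% and 20.1% of all genes. The values of the groups did not overlap for 9, 7 and 8 of the 10 genes, and for 64.7%, 65.6% and 66.2% of all genes. The median log2 difference of the 10 genes was 0.53 in DNL and 0.28 in OA, against -0.02 and -0.03 over all genes tested. OA and DNL compared directly gave 4 of the 10 genes higher and 5 lower in OA, against 30.9% and 31.9% of all genes (62.8% in either direction). The 4 higher became 3 without DNL replicate 1, DNL replicate 2, OA replicate 2 or OA replicate 3, and 3 higher and 4 lower were called with OA replicate 1 as the only OA library. Without OA replicate 3, the counts in OA against WT were 6 higher and 1 lower. Both treated groups are compared with the same 3 WT libraries, so these comparisons are not independent of each other. Scaling by library totals instead of TMM changed the share of calls that were higher from 50.3% to 32.2% in DNL against WT and from 49.2% to 66.1% in OA against DNL. It shifted the median gene by -0.17 and 0.23 on the log2 scale, and changed 1 call among the p53 targets, MDM2 in DNL against WT. It also turned the sign of 3 values that were not called either way, BTG2 and SESN1 in OA against WT and TP53I3 in OA against DNL.

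CDKN1A (chromosome 6, 36676460 to 36687339 on GRCh38) encodes p21, the inhibitor of cyclin-dependent kinases through which p53 holds cells in G1. It measured 158, 165 and 159.7 CPM in WT, 268, 275 and 311 in DNL and 297, 356 and 363 in OA. Every library of both treated groups was above every WT library, while the DNL and OA values overlapped. The mean rose from 161 ± 3.51 CPM (SD, n = 3) in WT to 285 ± 22.9 in DNL, a 1.77-fold difference (log2 fold change 0.82, SE 0.076, adjusted p = 3.59e-06). In OA it reached 338 ± 36.3 CPM, a 2.10-fold difference (log2 fold change 1.07, SE 0.0767, adjusted p = 3.34e-07), and 1.02 on the log2 scale without OA replicate 3. OA was called above DNL (log2 fold change 0.25, adjusted p = 0.0137). That call was lost without DNL replicate 1 (adjusted p = 0.0661), DNL replicate 2 (0.0592), OA replicate 2 (0.0607) or OA replicate 3 (0.0518). The difference was 0.20 without OA replicate 3, and with OA replicate 1 as the only OA library it was 0.06.

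BTG2 (chromosome 1, 203305491 to 203309602) encodes an antiproliferative cofactor of mRNA deadenylation. It measured 24.4, 28.2 and 26.5 CPM in WT, 45.4, 46.8 and 47.4 in DNL and 26.0, 28.1 and 23.3 in OA. DNL stood clear above both other groups, and the WT and OA values overlapped. The rise in DNL was 1.77-fold (log2 fold change 0.82, SE 0.0809, adjusted p = 2.24e-06). OA did not pass the test against WT (log2 fold change -0.02, adjusted p = 0.883) and fell against DNL by 0.84 on the log2 scale (adjusted p = 1.63e-06). Without OA replicate 3 these log2 differences were 0.04 and -0.78, and the sign against WT also turned under 5 other settings, without a call.

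MDM2 (chromosome 12, 68808176 to 68850686) encodes the ubiquitin ligase that marks p53 for degradation, and it closes the feedback loop as a p53 target. It measured 595, 643 and 618 CPM in WT, 599, 599 and 640.2 in DNL and 704, 713 and 754 in OA. The WT and DNL values overlapped throughout, and all OA libraries lay above them. DNL did not pass the test against WT (log2 fold change -0.01, SE 0.0433, adjusted p = 0.794), although scaling by library totals called MDM2 lower there (-0.18, adjusted p = 0.0055). The rise in OA was 1.17-fold (log2 fold change 0.22, SE 0.0435, adjusted p = 0.000614) and 0.19 on the log2 scale without OA replicate 3. OA was above DNL by 0.24 (adjusted p = 0.000342), or 0.21 without OA replicate 3. MDM2 shares 133 exon bases with the gene CPM (carboxypeptidase M) on the opposite strand, whose level was at most 1.52 in any library.

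SESN1 (chromosome 6, 108986437 to 109094819) encodes sestrin 1, which restrains the growth kinase complex mTORC1. It measured 28.4, 29.9 and 26.3 CPM in WT, 43.6, 41.1 and 46.9 in DNL and 30.5, 25.3 and 27.2 in OA. The DNL libraries were above all others, and WT and OA overlapped. SESN1 rose 1.56-fold in DNL (log2 fold change 0.64, SE 0.0849, adjusted p = 3.27e-05), did not pass the test in OA against WT (-0.03, adjusted p = 0.758), and fell by 0.67 on the log2 scale in OA against DNL (adjusted p = 2.03e-05). Without OA replicate 3 the OA values were -0.03 against WT and -0.67 against DNL. RRM2B (chromosome 8, 102204502 to 102239118) encodes the p53-inducible small subunit of ribonucleotide reductase, which makes deoxynucleotides for repair and mitochondrial DNA. It measured 68.0, 70.2 and 66.6 CPM in WT, 104, 105 and 112 in DNL and 71.3, 67.5 and 66.0 in OA, again with only the DNL libraries set apart. RRM2B rose 1.57-fold in DNL (log2 fold change 0.65, SE 0.0526, adjusted p = 3.68e-07), while OA differed from WT by less than 0.01 on the log2 scale (adjusted p = 0.994) and was below DNL by 0.65 (adjusted p = 2.79e-07). Without OA replicate 3 these were 0.02 and -0.63.

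TP53INP1 (chromosome 8, 94925972 to 94949411) encodes a nuclear and autophagy protein that is induced by p53 and promotes its activity. It had the largest difference of the 10 genes upwards from WT. It measured 81.2, 94.6 and 85.5 CPM in WT, 209.6, 200.2 and 206 in DNL and 129.5, 113 and 113 in OA. The groups did not overlap, in the order WT, OA, DNL. The rise was 2.36-fold in DNL (log2 fold change 1.24, SE 0.0653, adjusted p = 6.1e-09) and 1.36-fold in OA (log2 fold change 0.44, SE 0.0663, adjusted p = 7.33e-05), or 0.47 on the log2 scale in OA without replicate 3. OA was lower than DNL by 0.79 (adjusted p = 2.59e-07), with -0.77 without OA replicate 3. TP53I3 (chromosome 2, 24077433 to 24085861) encodes a quinone oxidoreductase, also called PIG3, linked to oxidative stress. It measured 20.1, 20.6 and 21.1 CPM in WT, 26.0, 26.9 and 30.2 in DNL and 27.7, 26.3 and 23.9 in OA, with both treated groups above WT. TP53I3 rose 1.34-fold in DNL (adjusted p = 0.000919) and 1.27-fold in OA (adjusted p = 0.00449), or 0.39 on the log2 scale in OA without replicate 3. The difference between OA and DNL did not pass the test (-0.09, SE 0.0873, adjusted p = 0.409). It was -0.04 without OA replicate 3 and 0.15 under scaling by library totals.

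BBC3 (chromosome 19, 47220822 to 47232766) encodes PUMA, a BH3-only protein that triggers mitochondrial apoptosis by binding BCL2-like guardians. It had the widest range of the 10 genes and moved in opposite directions in the treated groups. It measured 25.2, 25.6 and 29.6 CPM in WT, 8.40, 9.40 and 10.3 in DNL and 41.6, 58.0 and 44.7 in OA. No value of one group fell within the range of another. BBC3 fell in DNL to 9.36 ± 0.943 CPM, 2.86-fold lower (log2 fold change -1.52, SE 0.134, adjusted p = 9.8e-07), and 97.7% of all genes tested had a higher log2 difference. In OA it rose to 48.1 ± 8.70 CPM, 1.81-fold higher (log2 fold change 0.86, SE 0.124, adjusted p = 6.3e-05), with 0.91 on the log2 scale without OA replicate 3 and 0.64 with OA replicate 1 as the only OA library. The direct comparison put OA 5.19-fold above DNL (log2 fold change 2.38, SE 0.136, adjusted p = 9.96e-09), with a log2 difference of 2.43 without OA replicate 3.

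FAS (chromosome 10, 88990582 to 89015785) encodes a death receptor at the cell surface. It measured 18.7, 18.9 and 18.3 CPM in WT, 24.1, 19.7 and 19.3 in DNL and 16.2, 12.3 and 14.7 in OA. All DNL libraries were above WT, though replicates 2 and 3 only narrowly, and all OA libraries were below WT. DNL did not pass the test against WT (0.18, adjusted p = 0.198). The fall in OA (log2 fold change -0.38, SE 0.12, adjusted p = 0.0143) was no longer called when OA replicate 2 was left out (-0.26, adjusted p = 0.0945) or OA replicate 1 was the only OA library (-0.20, adjusted p = 0.306), and stood at -0.40 without OA replicate 3. OA was lower than DNL by 0.57 on the log2 scale (adjusted p = 0.00118), with -0.58 without OA replicate 3 and without a call when OA replicate 1 was the only OA library (adjusted p = 0.0569). FAS shares 380 exon bases with ACTA2 on the opposite strand. ACTA2 measured 61.4, 62.2 and 60.2 CPM in WT, 88.7, 89.2 and 87.4 in DNL and 58.5, 80.2 and 164 in OA, and its part in the FAS values was not tested.

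GDF15 (chromosome 19, 18374731 to 18389176) encodes a secreted stress cytokine. It measured 664, 632 and 665 CPM in WT, 519.8, 518 and 529 in DNL and 876, 887 and 794 in OA. The groups did not overlap and stood in the order DNL, WT, OA. GDF15 fell in DNL by 0.32 on the log2 scale (SE 0.044, adjusted p = 4.03e-05) and rose in OA 1.30-fold (log2 fold change 0.38, SE 0.0441, adjusted p = 7.05e-06), or 0.43 on the log2 scale without OA replicate 3. OA was 1.63-fold above DNL (adjusted p = 1.69e-08), with a log2 difference of 0.71, or 0.76 without OA replicate 3.

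**Figure D2:**
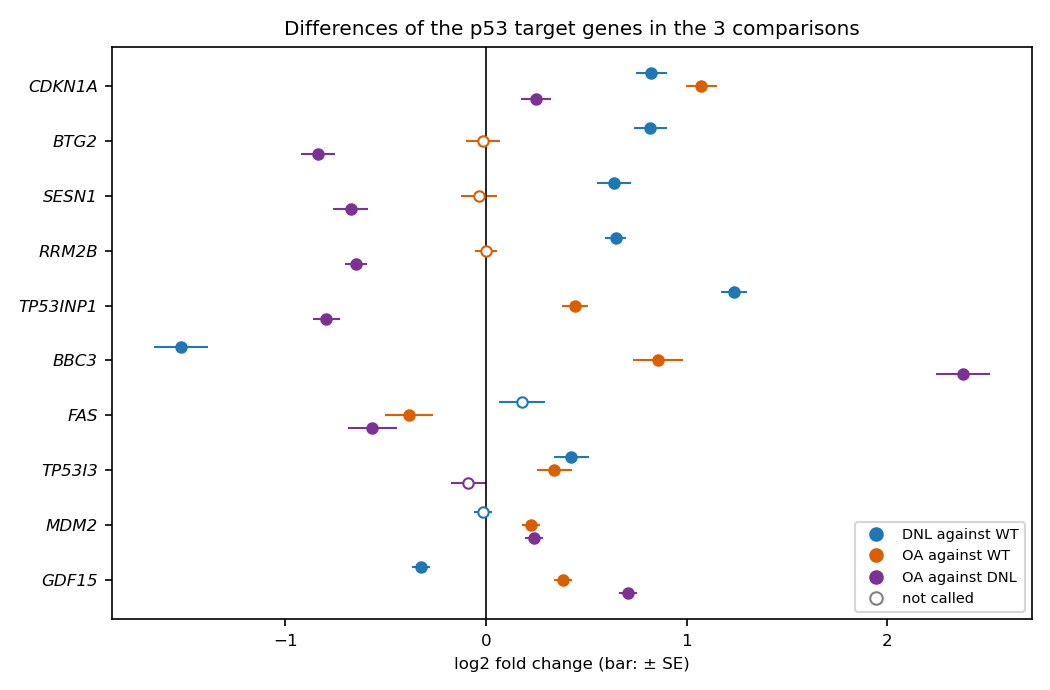
Log2 fold change (horizontal axis, points ± SE from the edgeR fit) of each p53 target in the 3 comparisons, with filled points where the adjusted p was under 0.05. BBC3 spans from -1.52 in DNL against WT to 2.38 in OA against DNL, and BTG2, SESN1 and RRM2B lie near 0 in OA against WT.

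The genes that control p53 were split. Of 20 regulators tested among 21 listed, 4 rose and 4 fell in DNL, with a median of 0.00, and 7 rose and 8 fell in OA, with a median of 0.04. Among all genes tested, 27.1% were called higher and 26.8% lower in DNL against WT, and 30.4% and 29.7% in OA against WT. In OA against DNL these shares were 30.9% and 31.9%. The counts of this list and of the lists that follow are to be read beside these shares. Scaling by library totals left 1 regulator higher and 7 lower in DNL. MDM4, the MDM2 relative that masks the activation domain of p53, fell from 105 ± 14.3 CPM to 65.3 ± 4.24 in DNL and to 86.5 ± 6.01 in OA. Its call in OA was lost without WT replicates 2 or 3, without OA replicates 1 or 2, with OA replicate 1 as the only OA library, and with scaling by library totals (adjusted p between 0.0623 and 0.0872). PPM1D, a phosphatase that turns the p53 response off, passed the test in neither group (adjusted p = 0.799 and 0.427). In OA, the checkpoint kinase CHEK1 rose from 20.1 ± 1.06 to 53.6 ± 3.23 CPM and CDKN2A, whose ARF product restrains MDM2, from 7.17 ± 0.948 to 20.4 ± 0.751. The kinases ATR and HIPK2, which act upstream of p53, fell there by 1.20 and 0.89 on the log2 scale. In DNL, the deacetylase SIRT1 and the acetyltransferase KAT5 fell by 0.51 and 0.46.

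Relatives of the p53 targets from the same gene families did not always move with them. Of 9 relatives tested, 4 rose and 4 fell in DNL, and 4 rose and 1 fell in OA. SESN2, a sestrin that ATF4 also induces, measured 112 ± 2.21 CPM in WT and 28.0 ± 2.67 in DNL, a fall of 4.02-fold (adjusted p = 3.42e-10), where SESN1 rose. In OA, SESN2 did not pass the test (118 ± 9.61 CPM, adjusted p = 0.354). SESN3, known as a target of FOXO factors, measured 2.53, 1.86 and 2.56 CPM in WT, 28.6, 27.3 and 28.5 in DNL and 14.8, 13.6 and 24.5 in OA, with OA replicate 3 the highest of its group. The kinase inhibitor CDKN1B (p27) fell from 91.0 ± 0.299 to 50.4 ± 1.18 CPM in DNL, where CDKN1A rose, and stood at 92.3 ± 5.94 in OA (adjusted p = 0.731). CDKN1C did not pass the filter on low counts. BTG1 and BTG3 had their highest values in OA, at 52.6 ± 4.83 and 36.8 ± 3.04 CPM against 18.4 ± 1.88 and 15.5 ± 1.23 in WT, whereas BTG2 was highest in DNL. BTG1 fell in DNL by 0.33 on the log2 scale, a call lost without WT replicate 1 (adjusted p = 0.142), DNL replicate 1 (0.0938) or DNL replicate 3 (0.117). TP53INP2 rose in DNL as TP53INP1 did, from 223 ± 7.33 to 444 ± 13.7 CPM, and did not pass the test in OA (adjusted p = 0.505). RRM1, the large subunit of ribonucleotide reductase, rose 1.92-fold in DNL and 3.89-fold in OA. RRM2, the subunit used in S phase, was uneven between libraries, at 12.05, 19.4 and 19.4 CPM in WT, 21.1, 11.97 and 35.0 in DNL and 57.2, 17.9 and 37.5 in OA, and was not called (adjusted p = 0.522 and 0.121 against WT). Without OA replicate 2, RRM2 was called higher in OA than in WT (adjusted p = 0.0404).

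**Figure D3:**
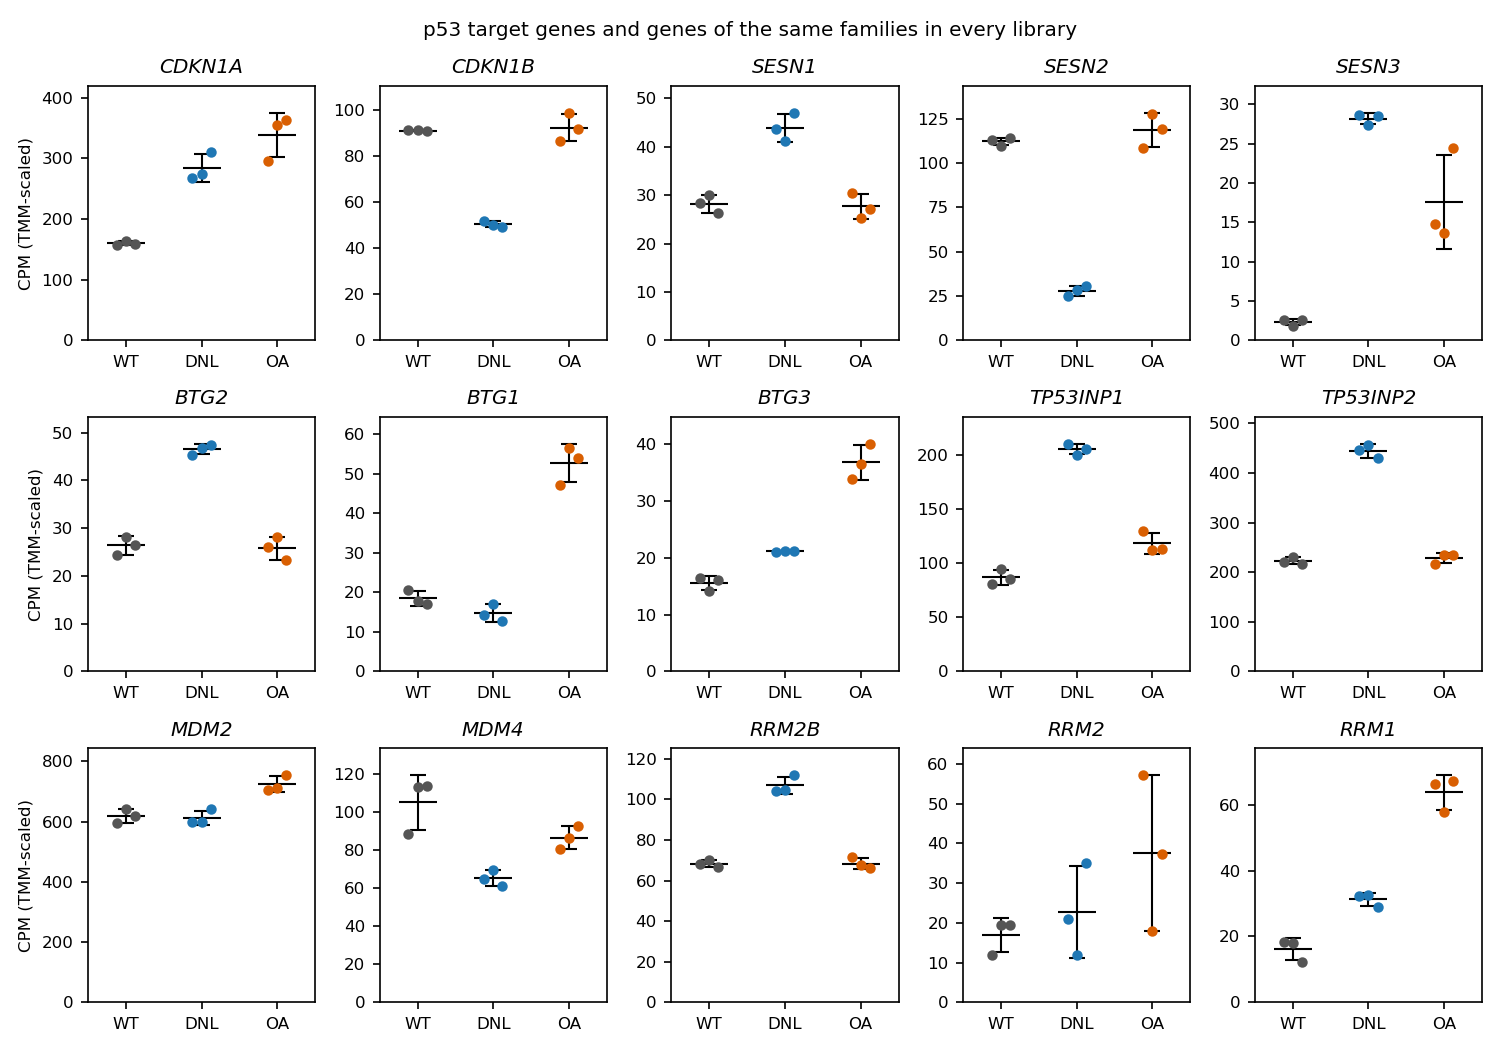
TMM-scaled CPM (vertical axes, each starting at 0) of p53 targets beside genes of the same families in the 3 groups, with single libraries as points and mean ± SD as bars (n = 3). SESN1 and SESN2 differ in direction in DNL, as do CDKN1A and CDKN1B, while TP53INP1 and TP53INP2 are both highest in DNL.

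Other genes known as p53 targets were tested in 4 lists. Among 12 genes of arrest and feedback, 7 rose and 2 fell in DNL, and 7 rose and 1 fell in OA (6 and 1 without OA replicate 3). In DNL, ZMAT3, an RNA-binding protein, rose from 89.6 ± 2.66 to 178 ± 8.18 CPM and CCNG1, which encodes cyclin G1, from 168 ± 3.57 to 282 ± 5.39, while SERTAD1 fell from 17.5 ± 1.91 to 7.71 ± 1.04. In OA, SFN (14-3-3 sigma, a brake on mitotic entry) rose from 22.3 ± 0.971 to 316 ± 28.9 CPM and the kinase PLK2 from 13.3 ± 0.883 to 38.9 ± 5.002. RPS27L, a ribosomal protein relative, was 53.2 ± 2.57 CPM in WT, 84.4 ± 1.99 in DNL and 44.9 ± 2.26 in OA. It was lower in OA than in WT by 0.24 on the log2 scale. Among 13 tested genes of apoptosis, 3 rose and 5 fell in DNL, and 6 rose and 3 fell in OA, where scaling by library totals left 6 higher and 0 lower. PERP, a membrane protein, rose in both groups, from 202 ± 3.85 CPM to 279 ± 8.88 in DNL and 289.5 ± 10.5 in OA. APAF1, the core of the apoptosome, rose in OA from 23.9 ± 1.20 to 73.7 ± 1.57 CPM. FDXR, a mitochondrial reductase, and TNFRSF10B, a TRAIL receptor, fell in DNL by 0.37 and 0.32 on the log2 scale.

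Of 6 DNA repair targets, 3 rose and 1 fell in each treated group against WT. DDB2, which recognises ultraviolet damage, rose from 18.7 ± 0.444 CPM to 32.3 ± 1.70 in DNL and 25.5 ± 0.501 in OA, and its partner in damage recognition XPC fell in OA by 0.36 (adjusted p = 0.00172, and 0.0523 with OA replicate 1 as the only OA library). Of 10 tested targets in metabolism and autophagy, 5 rose and 2 fell in DNL, and 4 rose and 2 fell in OA. DRAM1, a lysosomal membrane protein, rose 1.70-fold in DNL and 1.40-fold in OA. ULK1, the kinase that starts autophagy, fell from 97.3 ± 2.26 to 51.5 ± 1.46 CPM in DNL and rose to 132 ± 7.24 in OA. The medians of the 4 lists were 0.30, 0.05, 0.13 and 0.21 in DNL and 0.32, 0.42, 0.27 and 0.15 in OA, in the order arrest, apoptosis, repair and metabolism. Scaling by library totals turned the DNL medians of the apoptosis and repair lists to -0.11 and -0.03.

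The cyclins and kinases that p21 is known to bind were mostly higher in both treated groups. Of 10 cyclins, kinases and PCNA, 7 rose and 0 fell in DNL (5 and 1 under scaling by library totals). In OA, 8 rose and 2 fell. CCND2, among those higher in OA, was uneven there, at 0.0016, 3.71 and 25.4 CPM in OA replicates 1, 2 and 3. Its mean was 0.0116 CPM in WT and 175 in DNL. CCND1, cyclin D1, rose from 452 ± 5.15 to 806 ± 28.7 CPM in DNL, and the replication clamp PCNA from 70.4 ± 1.504 to 138 ± 2.05 in DNL and 150.3 ± 17.2 in OA. CDK6 and CDK4 fell in OA by 0.36 and 0.24 on the log2 scale, the latter without a call under scaling by library totals (adjusted p = 0.0571) or with OA replicate 1 as the only OA library (0.18). Genes known to be repressed through p21 and the DREAM complex split in DNL, with 8 of 20 higher and 7 lower and a median of -0.14, or 6 higher and 11 lower under scaling by library totals. In OA, 16 of 20 rose and 0 fell, with a median of 0.82, and the same counts held without OA replicate 3. MYBL2, a cell cycle transcription factor, rose from 14.2 ± 0.741 CPM to 26.8 ± 1.69 in DNL and 79.4 ± 2.75 in OA, and MKI67, the Ki-67 proliferation marker, from 68.2 ± 3.90 to 101 ± 3.56 and 183 ± 3.67. The mitotic kinases PLK1 and AURKA fell in DNL by 0.95 and 0.59.

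Around BBC3, 12 genes of the BCL2 family were tested, of which 2 rose and 5 fell in DNL, and 4 rose and 3 fell in OA (1 fell under scaling by library totals). The guardians MCL1 and BCL2L2 fell in DNL from 636 ± 17.2 to 397 ± 21.1 CPM and from 149.8 ± 4.74 to 83.5 ± 4.54. The pore-forming BAK1 rose in OA from 32.7 ± 1.67 to 61.0 ± 1.67 CPM. BMF, another BH3-only gene, rose in both groups, by 0.67 in DNL and 0.66 in OA on the log2 scale, whereas BBC3 fell in DNL. In the death receptor pathway of FAS, 0 of 10 tested genes rose and 6 fell in DNL, and 3 rose and 5 fell in OA. CASP10, an initiator caspase, fell from 100.4 ± 4.18 CPM to 67.1 ± 4.61 in DNL and 48.8 ± 2.14 in OA. FASLG, the ligand of FAS, did not pass the filter on low counts.

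The ATF4 and CHOP stress list, through which GDF15 and BBC3 can also be induced, was mostly lower in DNL, where 11 of 12 genes, SESN2 among them, fell and 0 rose (median -0.81). In OA, 4 rose and 3 fell, with a median of 0.02 (3 rose and 5 fell with OA replicate 1 as the only OA library), and OA was above DNL for 8 genes and below it for 1. ASNS, asparagine synthetase, fell from 383 ± 11.1 CPM to 212 ± 4.05 in DNL and 205 ± 8.96 in OA. The stress factors ATF3 and PPP1R15A rose in OA from 26.4 ± 2.76 to 113 ± 16.6 and from 115 ± 1.85 to 294 ± 61.7 CPM. PSAT1, of serine synthesis, fell there from 780.3 ± 6.81 to 273 ± 7.21.

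**Figure D4:**
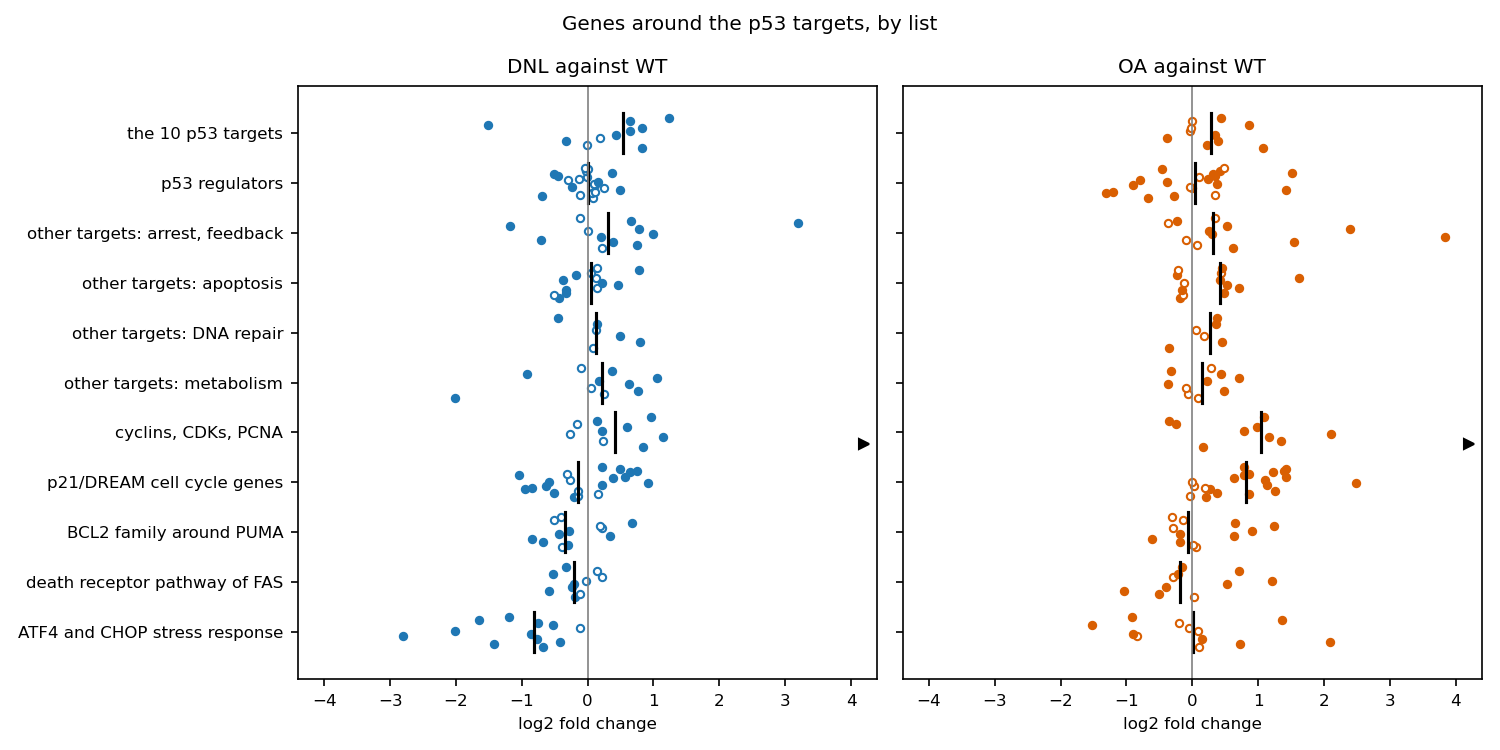
Log2 fold change (horizontal axes) of each tested gene in the lists around the p53 targets, in DNL against WT (left) and OA against WT (right). Filled points passed the test, black bars are list medians, and the triangle marks CCND2, beyond the axis. The ATF4 and CHOP list lies below 0 in DNL (median -0.81), and 16 of 20 genes of the p21 and DREAM list rose in OA (median 0.82).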

How the data were processed

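The values analysed are the authors' estimated counts, 1 per gene and library. The submitters' processing notes name kallisto 0.48.0, FastQC 0.11.9 and the build GRCh38. Which annotation release and strand setting they used is not given in the sources used here, so reads of genes that overlap, or of near-identical copies, may be split between them. Of 19317 identifiers, 19316 matched a symbol, and coordinates are from GENCODE release 29. Estimated counts were rounded, filtered with filterByExpr, scaled by TMM and compared by edgeR 4.0.16 (quasi-likelihood F test, robust, R 4.3.3) in 1 fit of all 9 libraries with group as the factor, over 13636 genes. A call is a Benjamini-Hochberg adjusted p under 0.05. Levels are TMM-scaled CPM as mean ± SD (n = 3), and the SE follows from the F statistic. The procedure was also run on simulated libraries drawn from the WT proportions, with only a small share of genes changed. Many more genes were called in these data, so that run does not test the scaling used here. Alternatives were RLE factors, library totals, other filters, DESeq2 1.42.0, limma-voom 3.58.1, fits of the 2 groups compared, a replicate block and leaving out each library.

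The members and lists were chosen with earlier results of these data known. Named genes are the 10 targets, MDM4, PPM1D, all listed relatives and, per list and comparison, up to 2 called genes per direction, taken by adjusted p. Some genes that this rule names are not reported here. Cell type markers and genes named for overlap are outside that rule in part and were chosen after their values were seen, as were FASLG, CCND2, TP63, TP73 and TP53AIP1. Whether replicates are separate cultures is not stated in the labels, and a p-value then covers only the spread of these libraries, which may be technical. Replicate pairs differed by more than sampling noise (chi-square per degree of freedom 5.44 to 16.6).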

Additional observations from a re-analysis of the deposited data

How the results depend on the processing

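Across 18 alternative settings, 531 of 540 values of the 10 p53 targets kept their side of the threshold, 8 lost a call and 1 gained one. These values include fits without a library of the group not compared, where little can change. BBC3 in DNL against WT, for example, was -1.518 in the main fit and -1.519 without OA replicate 3. The share kept is raised by such values. The sign changed in 20 of the 540, all without a call before or after (BTG2, SESN1 and RRM2B in OA against WT, MDM2 in DNL against WT and TP53I3 in OA against DNL), and 0 called values reversed. The changed calls were those given for CDKN1A, FAS and MDM2. The number of targets called lower in OA against WT, 1 as reported, was 0 to 1 when single libraries were left out and 0 with OA replicate 1 as the only OA library, a setting chosen after seeing the data, in which the lone library is assumed to vary like the other groups. Among other named genes, the cell type markers left out, 3625 of 3726 values kept their side of the threshold, 30 of them with a change of sign and no call. Scaling by library totals turned the sign of ASCC3 (-0.0281), CDK6 (-0.0261), HIPK2 (-0.0608) and RPL5 (-0.0038) in DNL against WT, and of ASNS (0.18), BMF (0.22), CDIP1 (0.18) and CFLAR (0.0716) in OA against DNL, as log2 fold changes. Same-numbered libraries deviated together only weakly (correlations -0.0654 to 0.177, and not all over 0.1 in any comparison), so the numbers were not taken as pairs. With a replicate block, 7245, 8099 and 8472 genes were called in DNL against WT, OA against WT and OA against DNL, against 7342, 8188 and 8557 without it, and 8, 7 and 9 targets in both fits. Depth limits FAS and BBC3 most, where the smallest counts, 124 and 141, carry a counting error of 8.99% and 8.41%.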

Other observations

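The genes whose level followed each p53 target most closely over the 9 libraries were found by the root mean square difference of centred log2 levels, among 10060 genes with at least 5 CPM on average. This is a description, since the libraries fall into 3 groups and many genes share a pattern of this kind. BBC3 had few neighbours, with 10 genes within 0.2 on the log2 scale, and the nearest were EREG (0.125), KLF16 (0.137) and NBL1 (0.163). EREG encodes the growth factor epiregulin. TP53INP1 had 121 genes within 0.2, led by FUCA1 (0.0853), a lysosomal fucosidase. CDKN1A had 129, led by ADGRG1 (0.079) and NOTCH2 (0.087). GDF15 had 1296, and its 3 nearest were GNA11 (0.0421), MARK2 (0.0427) and FDXR (0.0445). MDM2, which varied least, had 2401 genes within 0.2. VPS13C was among the 3 nearest genes of both SESN1 (0.0644) and RRM2B (0.0451).

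Of the p53 relatives, TP63 measured 0.0620 ± 0.0248 CPM in WT and did not pass the filter on low counts, and TP73 measured 1.31 ± 0.396 CPM in WT, 1.30 ± 0.440 in DNL and 1.74 ± 0.926 in OA, with no call. The target TP53AIP1, named for its role in apoptosis, was at most 0.267 CPM in any library.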
